A study of Mus musculus with 9 samples.

Results

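Axon guidance ligands and receptors were followed as 68 genes among the 14444 of the deposited expression matrix of mouse prefrontal cortex. They are the rows whose symbols name semaphorins of classes 3 to 7, plexins, neuropilins, ephrins, Eph receptors, Slits, Robo1, Robo2 and Robo4, netrins, netrin-Gs, Unc5 receptors or Dcc. The names give 36 ligands and 32 receptors in 13 families. Of the 70 genes that GENCODE M21 holds under these names, Efna4 and Epha1 were not analysed here.

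Guidance cues steer growing axons by attracting or repelling the growth cone, and in the adult cortex the same molecules act on spines, synapses and blood vessels. Secreted class 3 semaphorins mostly bind a neuropilin that passes the signal to a plexin, while membrane-bound semaphorins bind plexins directly. Ephrins sit on the surface of one cell and bind Eph receptor tyrosine kinases on another, Slits repel axons through Robo receptors, and netrin attracts through Dcc and repels when an Unc5 receptor takes part.

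The mice were aged 5 to 8 postnatal weeks, and total RNA of the prefrontal cortex was sequenced after ribosomal RNA was depleted. Of the 9 libraries, 3 came from wild-type mice given saline, 3 from Shank3 mutants given saline and 3 from Shank3 mutants given UNC0642, an inhibitor of the histone methyltransferases EHMT1 and EHMT2. UNC0642 was injected intraperitoneally at 1 mg/kg daily for 3 days. Shank3 encodes a scaffold of the excitatory postsynapse; the labels give neither the mutant allele nor its copy number, nor whether libraries of a group are separate animals, so p-values may measure technical spread only.

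The deposited values, named CPM (reads per library scaled to a common total), behave as if adjusted after scaling: for every gene the mean log2 value of the saline mutants with UNC0642 replicate 1 equals that of the other 5 libraries. A log2 difference of 1 that the saline mutants alone carry therefore appears as 0.25 against wild type, and one that all mutants carry as 0.4 in saline mutants and 0.8 under UNC0642. Between UNC0642 and saline the latter also appears as 0.4, although both groups carry it alike. Whole reads from before this adjustment, 12035098 to 16165483 per library, were recovered for all 14444 genes, and values scaled from them are called recovered CPM. The first principal component of the recovered reads (53.3% of the variance) put wild type and UNC0642 replicate 3 on one side and the other 5 libraries on the other, so saline mutant and wild type cannot be told apart from this division except through that library. Shank3 lay between 288 and 355 in all 9 libraries, which without the allele checks no genotype, and the excitatory neuron gene Slc17a7 was present throughout (at least 1468).

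Every member was detected in every library, with 7 to 4322 recovered reads and a median of 418. Mean deposited values ran from 1.28 for Epha2 to 242 for Ephb6, with 10 members over 100 and 13 under 10, and the member median of 30.5 was close to the 25.5 of all genes. Divided by the kilobases of the longest coding transcript in GENCODE M21, which makes genes comparable, the highest member was Ephb6 at 64.4, an Eph receptor whose kinase domain is inactive. Sema7a followed at 43.2 and Sema6b at 39.97. Sema7a is a membrane-anchored semaphorin that binds integrins and plexin C1, and Sema6b is a transmembrane ligand of A plexins. In 51 of 68 members no exon of another gene overlaps, and in 13 an antisense gene does, whose reads cannot be told apart because the strand setting of the counting is not given in the sources used here. In 5 members, Nrp1, Ntn3, Ntng2, Plxnc1 and Sema4a, a gene on the same strand overlaps, which leaves their values less certain.

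Among the semaphorins, the 13 members of classes 4 to 7 summed to 167 to 186 per kilobase across libraries and the 7 of class 3 to 18.1 to 21.6. Within class 3 the highest per kilobase were Sema3c (5.85) and Sema3e (4.27), the latter the ligand of plexin D1, and the lowest was Sema3b (0.685). Plexins summed to 82.8 to 104 per kilobase. Plxna1 (19.6) and Plxna2 (14.8) led them, and Plxnb3, a plexin known from oligodendrocytes, was lowest at 2.69. The neuropilin Nrp1 stood at 10.4 and Nrp2 at 3.98.

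Of the Eph receptors, Epha4 reached 33.5 per kilobase, a level over 2-fold that of Epha5 (12.9), while Epha2 was the lowest of all 68 members at 0.326. Ephb1, the second highest B-class receptor, had 9.69. Their ligands were led by Efnb3 (27.2), Efnb2 (15.6) and Efna3 (15.6), with Efna5 at 5.84. The spread between libraries left neighbours such as Efnb2 and Efna3 without an order.

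The Slits were ordered Slit1 (12.1 per kilobase), Slit3 (7.54) and Slit2 (3.91), and their receptors Robo2 (12.02), Robo1 (7.49) and Robo4 (1.15), the last a receptor of endothelial cells. Secreted netrins were low, with Ntn1 at 1.53; Ntn3 had 3.08, but its annotated exons overlap Tbc1d24 on the same strand and its value is uncertain. Ntng2 (9.103) and Ntng1 (2.87) are membrane-anchored relatives that bind netrin-G ligands at synapses, and the exons of Ntng2 also overlap another gene on the same strand. Among netrin receptors Unc5a stood at 26.1, against 3.29 for Unc5c and 2.44 for Dcc, although Unc5a overlaps the antisense gene Hk3.

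These levels depend on the length used. With the union of all exons in place of the longest coding transcript, 20 of 68 members were lower by over 1.5 times. Among the receptors, Plxna2 then had 9.53, below Plxnb1 (11.6) and Plxnc1 (10.02), and Nrp1 3.82, Nrp2 2.26, Epha5 5.66, Ephb1 6.46, Robo2 6.08, Robo1 3.43 and Unc5c 1.66. Among the ligands, Ntng2 had 4.29 and Slit2 1.53.

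**Figure D1:**
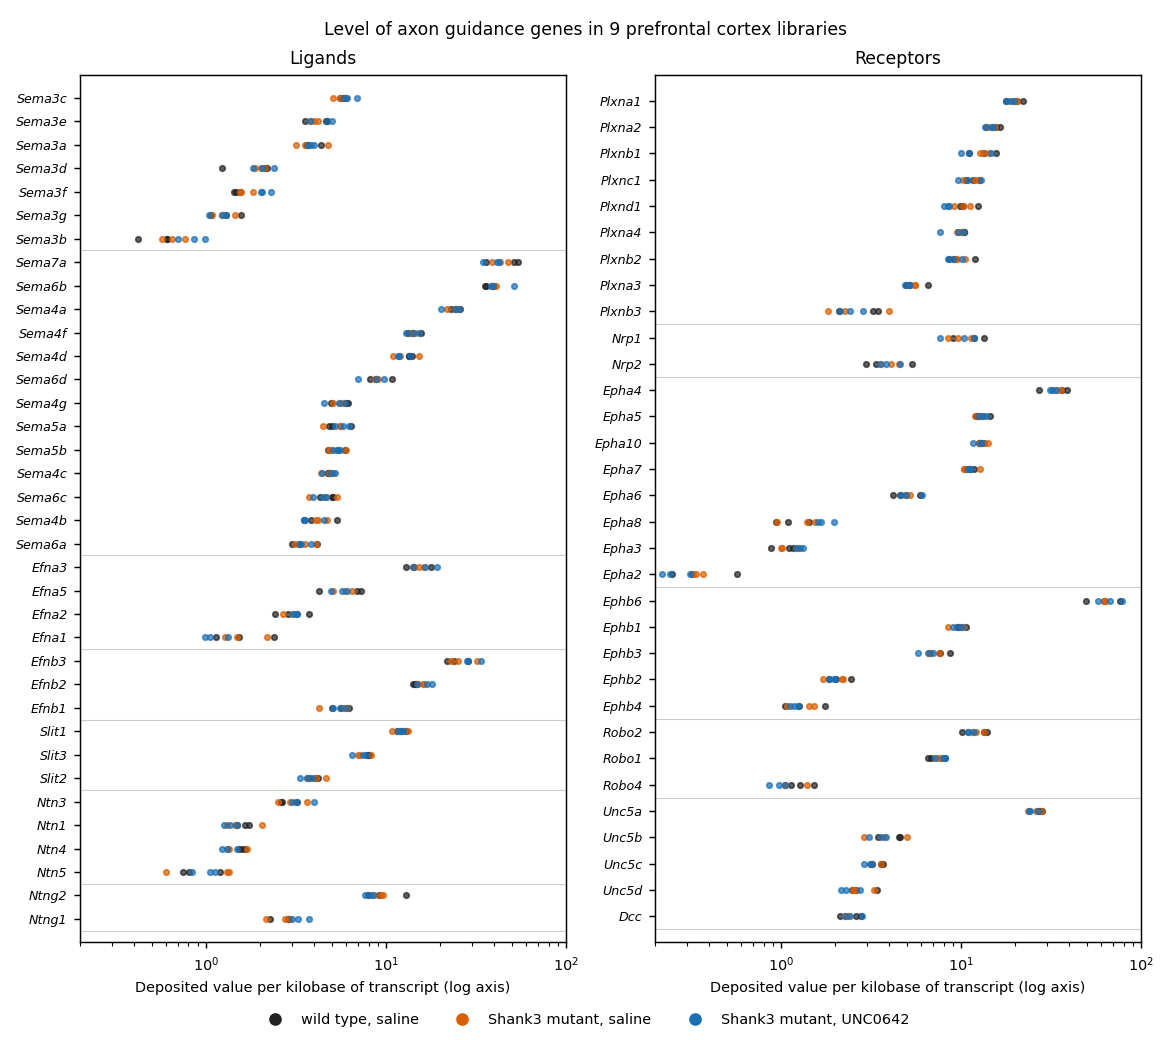
Deposited value per kilobase of the longest coding transcript (log axis) of the 36 ligands and 32 receptors, 1 point per library, coloured by group and ordered within families separated by grey lines. The highest gene is Ephb6, with a mean of 64.4, the lowest Epha2 with 0.326, and the 3 colours overlap in most rows.

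Ligands summed to 303 to 325 per kilobase and receptors to 322 to 354 over the 9 libraries, and in both sums the 3 groups overlapped. The median coefficient of variation across libraries was 11.8% for the members and 10.6% for all genes. Wild-type replicate 3 held the highest or lowest deposited value of 28 members (41.2%, against 39.5% of all genes) and UNC0642 replicate 2 of 26 members (38.2%, against 47.6%).

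To show what the promoters of these genes look like, RefSeq windows of 250 bases before the start (GRCm38.p6) were matched by symbol for 58 of 68 members, giving 74 windows. The GC box, written GGGCGG and searched on both strands, was in 70.3% of member windows against 55.9% of the 14012 windows of all matched genes. A TATA box (TATAAA) was in 2.7% against 6.58%, an E box (CACGTG) in 5.41% against 8.07% and a cyclic AMP response element (TGACGTCA) in 1.35% against 2.53%. Taken per gene as the median of its windows, GC content had a median of 65.4% in members and 60% in all matched genes. The windows of 3 members picked after their values were seen are printed 5′ to 3′, with GC boxes of either strand in capitals. These members are Efnb2 (chr8:8661243-8661492, minus strand), Plxnd1 (chr6:115995006-115995255, minus strand) and Sema3c (chr5:17574566-17574815, plus strand). In this order the windows hold 3, 1 and 3 boxes and 27, 16 and 39 CpG dinucleotides.
Efnb2: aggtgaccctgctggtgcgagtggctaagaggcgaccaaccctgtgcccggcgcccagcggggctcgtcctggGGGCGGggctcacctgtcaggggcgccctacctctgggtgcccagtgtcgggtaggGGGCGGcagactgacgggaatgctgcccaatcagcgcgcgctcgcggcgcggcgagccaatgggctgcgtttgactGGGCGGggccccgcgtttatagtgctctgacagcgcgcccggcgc
Plxnd1: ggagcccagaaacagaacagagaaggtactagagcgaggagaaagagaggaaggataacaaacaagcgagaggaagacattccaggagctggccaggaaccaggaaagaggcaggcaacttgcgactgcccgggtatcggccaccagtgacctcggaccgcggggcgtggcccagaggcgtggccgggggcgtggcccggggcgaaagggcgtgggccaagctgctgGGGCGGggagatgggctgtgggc
Sema3c: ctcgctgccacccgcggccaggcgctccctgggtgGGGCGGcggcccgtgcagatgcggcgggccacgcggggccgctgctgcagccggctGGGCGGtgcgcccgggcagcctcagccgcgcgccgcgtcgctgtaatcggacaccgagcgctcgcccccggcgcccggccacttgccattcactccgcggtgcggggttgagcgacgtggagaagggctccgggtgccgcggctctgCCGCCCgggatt
A match is a string of letters in this window and does not show that a factor binds there.

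The effect of genotype on guidance genes was read from saline mutants against wild type. The clearest member was Efnb2, the transmembrane ephrin B2 that binds EphB receptors and EphA4 and takes part in synapse and vessel formation. Efnb2 had 61.5, 63.3 and 64.02 in the wild-type libraries, 85.6, 83.9 and 79.1 in the saline mutants and 78.4, 73.7 and 78.4 under UNC0642 in recovered CPM. All 6 mutant libraries, UNC0642 replicate 3 among them, lay above all 3 wild-type libraries. Saline mutants exceeded wild type by a log2 difference of 0.39 (SE 0.08, limma-voom adjusted p = 0.017). With the division as a term the difference was 0.44 (SE 0.13), at a limma-voom adjusted p of 0.65.

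In the deposited values the same gene had 67.7, 69.7 and 70.5 in wild type, 78.2, 76.7 and 72.3 in saline mutants and 71.7, 81.1 and 86.2 under UNC0642. The groups again did not overlap, and the difference was reduced to 0.13 (SE 0.08, limma adjusted p = 1), as the adjustment does by construction. Efnb2 was the 1 member of 68 whose saline mutant and wild-type libraries did not overlap in deposited values, a state reached by 3.43% of all genes (1.73% higher in mutants). It was also the 1 member that kept all 6 mutants apart from wild type (1.18% of all genes, 0.512% higher). In recovered reads the same separation of 6 from 3 libraries held for 5 members against 12.4% of all genes: Sema3f, Epha3 and Efnb2 were higher in mutants (6.15% of all genes), and Sema4d and Ephb3 lower (6.29%). These genes were singled out after their values were seen.

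Over all members, limma on the deposited values called 0 of 68 at an adjusted p under 0.05 (0.0% of all genes), with 0 members and 0.132% of all genes at an unadjusted p under 0.05. The adjustment shrinks this difference by construction. In limma-voom on recovered reads 7 of 68 were called, 10.3% of members against 12.4% of all genes, a share near the background. Efnb2 and Sema6b were higher in saline mutants (5.71% of all genes), and Dcc, Nrp1, Unc5b, Plxnb3 and Sema4d lower (6.71%). The 6 members of smallest p in deposited values also held members that were not called on either scale, of which Unc5a stood at -0.09 (SE 0.08), Ephb3 at -0.12 (SE 0.11) and Sema3b at 0.23 (SE 0.22). With the division as a term 0 members and 0.0% of all genes were called, with 4 members and 4.91% of all genes at an unadjusted p under 0.05. Without wild-type replicate 2, or without saline mutant replicate 1 or 3, the 7 calls became 0 (0.0969%, 0.125% and 0.173% of all genes), and without UNC0642 replicate 3 they became 14 (20.6% of members, against 25.1% of all genes).

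Sema6b, on the side of the ligands, had 134, 122 and 120.1 in the wild-type libraries, 168, 160.0 and 164 in the saline mutants and 161, 175 and 129.9 under UNC0642 in recovered CPM. Here UNC0642 replicate 3 lay with wild type and not with the other mutants. The log2 difference of 0.39 (SE 0.10, limma-voom adjusted p = 0.031) became 0.02 (SE 0.12, adjusted p = 1) with the division as a term, under which 0.0% of all genes were called. Sema4d, a transmembrane semaphorin that binds plexin B1, had 65.3, 67.6 and 65.5 in the wild-type libraries, 44.9, 62.3 and 48.8 in the saline mutants and 55.6, 56.8 and 57.1 under UNC0642. Every mutant library lay below every wild-type library. The log2 difference was -0.36 (SE 0.11, limma-voom adjusted p = 0.046), and -0.33 (SE 0.18, adjusted p = 0.98) with the division as a term.

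Among the receptors, the neuropilin Nrp1 had 49.01, 55.7 and 37.3 in the wild-type libraries, 29.4, 35.00 and 26.02 in the saline mutants and 36.4, 31.9 and 43.5 under UNC0642 in recovered CPM. All 3 wild-type libraries lay above all 3 saline mutants, with UNC0642 replicate 3 inside the wild-type range. The log2 difference was -0.64 (SE 0.16, limma-voom adjusted p = 0.028), and -0.28 (SE 0.24, adjusted p = 0.99) with the division as a term. Dcc, the attractive netrin receptor, had 30.2, 32.6 and 24.6 in the wild-type libraries, 21.3, 20.5 and 20.4 in the saline mutants and 25.5, 26.4 and 28.2 under UNC0642. Its saline mutants spanned less than 1 CPM and lay below every other library. Dcc differed by -0.48 (SE 0.12, limma-voom adjusted p = 0.027) and, with the division as a term, by -0.36 (SE 0.19, adjusted p = 0.97).

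Unc5b, a repulsive netrin receptor also found on endothelial cells, had 24.6, 32.4 and 32.1 in the wild-type libraries, 13.7, 23.9 and 17.8 in the saline mutants and 18.2, 25.4 and 21.9 under UNC0642. Every saline mutant lay below every wild-type library, and UNC0642 replicate 2 lay within the wild-type range. It differed by -0.69 (SE 0.18, limma-voom adjusted p = 0.032), and by the same -0.69 (SE 0.31, adjusted p = 0.97) with the division as a term. Plxnb3 had 16.3, 25.04 and 27.00 in the wild-type libraries, 8.27, 18.2 and 10.3 in the saline mutants and 12.9, 16.5 and 18.8 under UNC0642, and here saline mutant replicate 2 lay inside the wild-type range. It had the largest difference of the 7, -0.92 (SE 0.26, limma-voom adjusted p = 0.035), and -0.59 (SE 0.41, adjusted p = 0.99) with the division as a term.

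Markers of other cell types differed in the same comparison. The 12 markers of oligodendrocytes and myelin were all negative in saline mutants against wild type (limma-voom median -0.73), with sums of 3230 to 5229 recovered CPM in wild type, 1622 to 3745 in saline mutants and 2747 to 5211 under UNC0642. Of 17 endothelial and mural markers 11 were negative (median -0.25), with sums of 411 to 500 in wild type, 336 to 394 in saline mutants and 354 to 417 under UNC0642. Of the 18 meningeal fibroblast markers all 18 were positive (median 0.49), with sums of 437 to 737, 702 to 852 and 475 to 1083. Astrocyte (11 of 13, median -0.17), oligodendrocyte precursor (9 of 11, -0.24) and microglia markers (9 of 12, -0.14) were mostly negative. Of 10 pan-neuronal markers 9 were positive (0.12). With the division as a term the astrocyte, precursor and microglia medians became 0.35, 0.18 and 0.27. The myelin, endothelial and fibroblast medians were then -0.63, -0.18 and 1.2, and no marker was called. Without this term, 3 of 12 myelin, 4 of 17 endothelial, 1 of 11 precursor and 1 of 12 microglia markers were called lower. Of 18 fibroblast markers 1 was called higher, of 10 pan-neuronal markers 2 higher and 1 lower, and of 13 astrocyte markers 0. Of all genes 12.4% were called in that fit. In deposited values 8 of 12 myelin markers were positive (median 0.02). No marker of these lists was at 0 reads in any library. Their part in the values of Plxnb3, Sema4d, Unc5b, Nrp1 or Efnb2 was not tested, and in bulk tissue fewer cells of a type and less RNA per cell cannot be told apart.

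**Figure D2:**
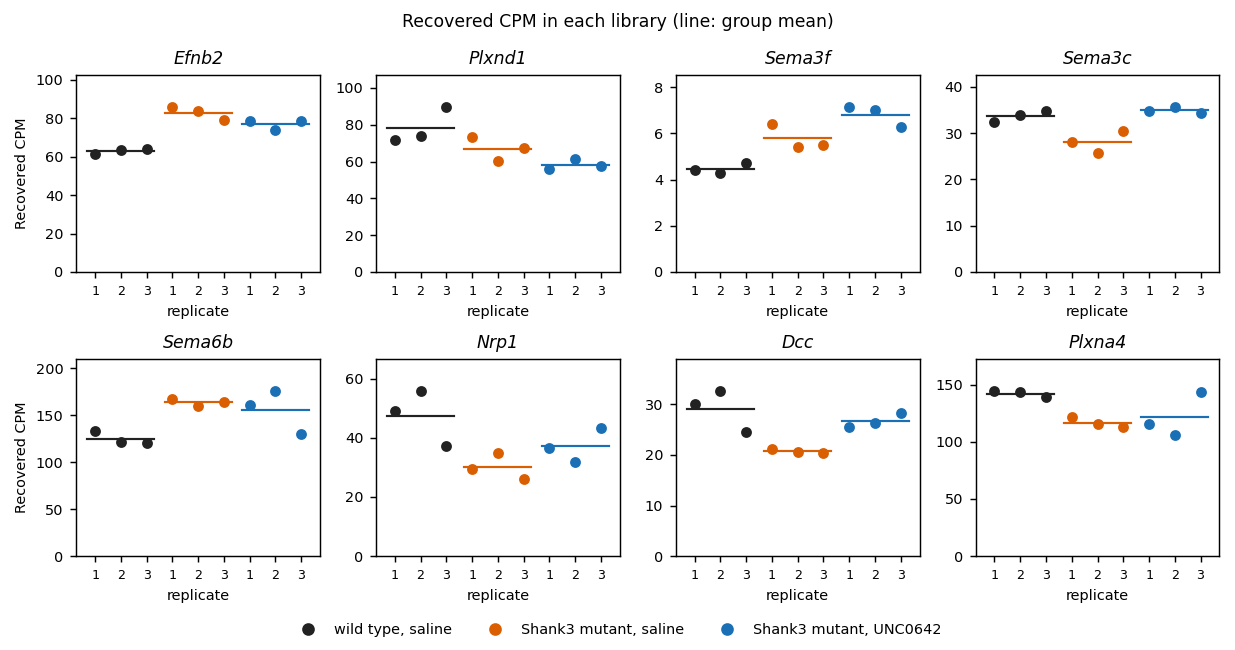
Recovered CPM (linear axis from 0) in each of the 9 libraries for 8 members, 1 point per library and a line at each group mean. Efnb2 is higher in all 6 mutant libraries than in wild type, while in Sema6b, Nrp1 and Plxna4 UNC0642 replicate 3 sits in or next to the range of wild type.

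In the recovered reads of saline mutants, 24 of 32 receptors (median -0.13) and 24 of 36 ligands (median -0.11) were negative against wild type. By family, all 9 plexins were negative against wild type (median -0.23), as were all 5 of Dcc and the Unc5 receptors (median -0.29) and all 3 Slits (median -0.12). Of 13 semaphorins of classes 4 to 7, 10 were negative (median -0.16). Over all 68 members 20 were positive with a median of -0.11, while 50.4% of all genes were positive. With the division as a term 5 of 9 plexins were positive and the member median was -0.01. In deposited values 23 of 68 members were positive (median -0.03, against 0.00 for all genes).

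The groups of saline mutant and wild type did not overlap in recovered reads for 15 members, 4 higher and 11 lower, against 40.6% of all genes (20.8% higher, 19.8% lower). For 5 of these, Plxna2, Plxna4, Nrp1, Sema4g and Sema6d, all 4 libraries of the side that holds wild type were higher than all 5 of the other, and for Sema6b and Epha3 all 4 were lower. These 7 members compare with 28.2% of all genes (13.6% and 14.6%). Plxna4, a co-receptor for Sema3a, had 144, 143 and 139 in the wild-type libraries, 122, 116 and 113 in the saline mutants and 116, 106 and 143 under UNC0642, and UNC0642 replicate 3 lay within the wild-type values.

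**Figure D3:**
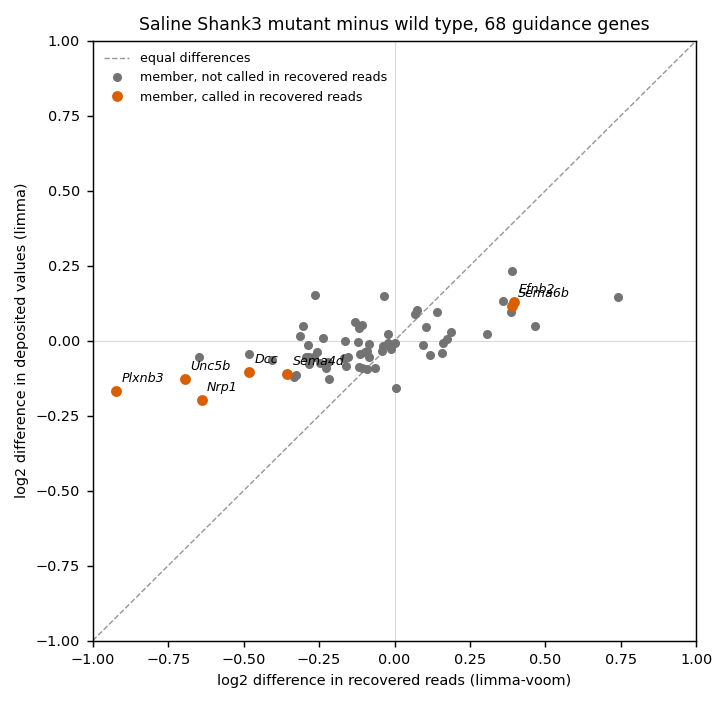
Log2 difference of saline mutants from wild type for each of the 68 members, in recovered reads (x axis, limma-voom) and in deposited values (y axis, limma), with the 7 members called in recovered reads in orange and a dashed line of equal differences. Points run from -0.92 to 0.74 along x but only from -0.20 to 0.23 along y.

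UNC0642 was compared with saline in the mutants to ask what inhibition of EHMT1 and EHMT2 does to these genes. In the 5 mutant libraries on the same side of the division, 2 with UNC0642 and 3 with saline, the secreted class 3 semaphorins were the 1 family of 13 with every member on the same side of 0, while in the deposited values the plexins and the B ephrins were. No count over a family was tested. All 7 class 3 members were positive in the 5 libraries (median log2 difference 0.23, range 0.07 to 0.33), while the median over all genes was 0.00 and 50.6% were positive. None of the 7 was called. In the deposited values 6 of 7 were positive (median 0.15), and in all recovered reads also 6 of 7 (median 0.21). The division was drawn from these same reads, and the family was singled out after its values were seen.

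Sema3c, which binds both neuropilins, led the class and had 32.4, 33.8 and 34.7 in the wild-type libraries, 28.01, 25.8 and 30.5 in the saline mutants and 34.9, 35.5 and 34.3 under UNC0642 in recovered CPM. All 3 UNC0642 libraries lay above all 3 saline mutants and close to wild type. On the same side of the division its difference was 0.33 (SE 0.10, limma-voom adjusted p = 0.78). In all 9 deposited libraries it was 0.18 (SE 0.10, limma adjusted p = 1), with 30.4, 31.7 and 32.6 in wild type, 30.3, 27.9 and 32.9 in saline mutants and 37.7, 33.3 and 32.2 under UNC0642, where the saline mutants reach into the UNC0642 range. Sema3e had 31.7, 32.3 and 24.3 in the wild-type libraries, 26.00, 26.9 and 28.5 in the saline mutants and 34.1, 32.02 and 25.8 under UNC0642, and differed by 0.28 (SE 0.10, limma-voom adjusted p = 0.78) on the same side, while UNC0642 replicate 3 lay below the saline mutants.

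Sema3f, a ligand of neuropilin 2 that acts on spines of cortical neurons, had 4.41, 4.29 and 4.696 in the wild-type libraries, 6.42, 5.41 and 5.500 in the saline mutants and 7.12, 7.01 and 6.27 under UNC0642. The 3 wild-type libraries were lowest and 2 of the UNC0642 libraries highest, and the third lay among the saline mutants. In deposited values the groups of UNC0642 and saline did not overlap, at 4.97, 4.84 and 5.28 in wild type, 6.18, 5.24 and 5.32 in saline mutants and 6.83, 7.77 and 6.98 under UNC0642. The adjustment carries part of a difference shared by all mutants into this comparison, 0.4 for a log2 difference of 1. The deposited difference was 0.34 (SE 0.15, limma adjusted p = 1), and 0.30 (SE 0.19, limma-voom adjusted p = 0.89) on the same side of the division.

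Plxnd1, the receptor of Sema3e and a regulator of vessels and of thalamic and striatal wiring, had the smallest p of all members in the deposited values. It had 68.5, 70.8 and 85.6 in wild type, 77.2, 63.1 and 70.6 in saline mutants and 58.5, 58.8 and 55.2 under UNC0642. Every UNC0642 library lay below every other library. The deposited difference between UNC0642 and saline was -0.28 (SE 0.10, limma adjusted p = 1). In recovered reads it had 71.5, 73.9 and 89.4 in the wild-type libraries, 73.5, 60.1 and 67.3 in the saline mutants and 55.7, 61.3 and 57.6 under UNC0642, where UNC0642 replicate 2 passed saline mutant replicate 2, and the difference on the same side was -0.18 (SE 0.09, limma-voom adjusted p = 0.85).

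The other members among the 6 of smallest p in deposited values were Ntng1 at 0.35 (SE 0.14), Epha8 at 0.43 (SE 0.20) and Slit2 at -0.18 (SE 0.10), all at a limma adjusted p of 1. Ntng1 is the netrin-G of thalamic axons, and had 12.7, 15.9 and 16.2 in wild type, 15.4, 12.1 and 16.2 in saline mutants and 20.97, 16.9 and 18.02 under UNC0642, with UNC0642 above both other groups. In recovered CPM it had 11.6, 14.6 and 14.9 in the wild-type libraries, 16.3, 12.8 and 17.2 in the saline mutants and 22.3, 15.5 and 16.5 under UNC0642, where saline mutant replicate 3 passed UNC0642 replicates 2 and 3. Epha8, a weakly expressed Eph receptor at 1.397 per kilobase, had 5.13, 4.400 and 6.77 in wild type, 7.28, 4.45 and 6.53 in saline mutants and 7.89, 9.27 and 7.53 under UNC0642. Its UNC0642 libraries were also highest. In recovered CPM Epha8 had 3.99, 3.38 and 5.32 in the wild-type libraries and 8.67, 5.22 and 7.76 in the saline mutants. Under UNC0642 it had 9.41, 7.38 and 5.95, so that UNC0642 and saline overlapped. Of the saline mutants only replicate 2 lay in the wild-type range. The adjustment carries part of a difference shared by all mutants into the deposited comparison of UNC0642 with saline.

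In limma on deposited values 0 of 68 members were called between UNC0642 and saline (0.0% of all genes), with 4 members at an unadjusted p under 0.05 against 1.95% of all genes. Limma-voom on recovered reads also called 0, with 3 members against 3.73%, and with the division as a term 0, with 3 members against 4.19%. On the same side of the division 0 were called and 6 members had an unadjusted p under 0.05, against 5.95% of all genes. Sema3c, Sema3e, Sema5a (0.25, SE 0.10) and Dcc (0.33, SE 0.11) were positive, and Plxnb1 (-0.19, SE 0.08) and Robo2 (-0.16, SE 0.07) negative, with limma-voom adjusted p of 0.78 to 0.83. The groups did not overlap for 6 members in deposited values (6.23% of all genes) and 6 in recovered reads (9.84%), and Ntng2, lower under UNC0642, was in both. Efnb2 was among those lower under UNC0642 in recovered reads, while its deposited difference was 0.07 (SE 0.08).

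Receptors leaned the other way from the class 3 ligands in deposited values. There a log2 difference of 1 shared by all mutants appears as 0.4 between UNC0642 and saline. One that follows the division, carried by the saline mutants and UNC0642 replicates 1 and 2, appears as 0.2, although UNC0642 replicate 3 lacks it. Of 9 plexins 0 were positive (median -0.09), and of 32 receptors 9 were, with a median of -0.07, against 18 of 36 ligands (median 0.01). The order did not hold in all recovered reads, where 6 of 9 plexins were positive. On the same side of the division 2 of 9 were, Plxna2 and Plxnb3 (median -0.08). Against wild type all 9 were negative in the recovered reads of both mutant groups. Plexin B1 is the receptor of Sema4d, and had 108, 129.5 and 152 in the wild-type libraries, 102, 110.1 and 98.6 in the saline mutants and 84.8, 96.3 and 141 under UNC0642 in recovered CPM. Both of its UNC0642 libraries on the side of the saline mutants were below all 3 of these, while UNC0642 replicate 3 was above them.

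Myelin, layer and astrocyte markers leaned to 1 side in the same 5 libraries, where limma-voom called 0 of them. Of the myelin markers 0 had an unadjusted p under 0.05, of the deep-layer 7, the upper-layer 4 and the astrocyte markers 8, against 5.95% of all genes. All 12 oligodendrocyte and myelin markers were positive under UNC0642 there (median 0.51). All 12 deep-layer excitatory neuron markers were also positive (median 0.24), 11 of 12 upper-layer markers were negative (median -0.15), and all 13 astrocyte markers were negative (median -0.18). Oligodendrocyte precursor markers were mixed, 5 positive and 6 negative (median -0.06), and of 12 microglia markers 9 were negative (median -0.08). In the 9 libraries deep-layer markers summed to 598 to 816 recovered CPM in wild type, 695 to 777 in saline mutants and 676 to 889 under UNC0642. Upper-layer markers summed to 1575 to 1695, 1739 to 1899 and 1698 to 1771, and astrocyte markers to 6144 to 7997, 5316 to 5738 and 4678 to 7685. No marker was at 0 in any library, and their part in the values of Sema3c, Sema3e, Dcc or Plxnb1 was not tested.

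**Figure D4:**
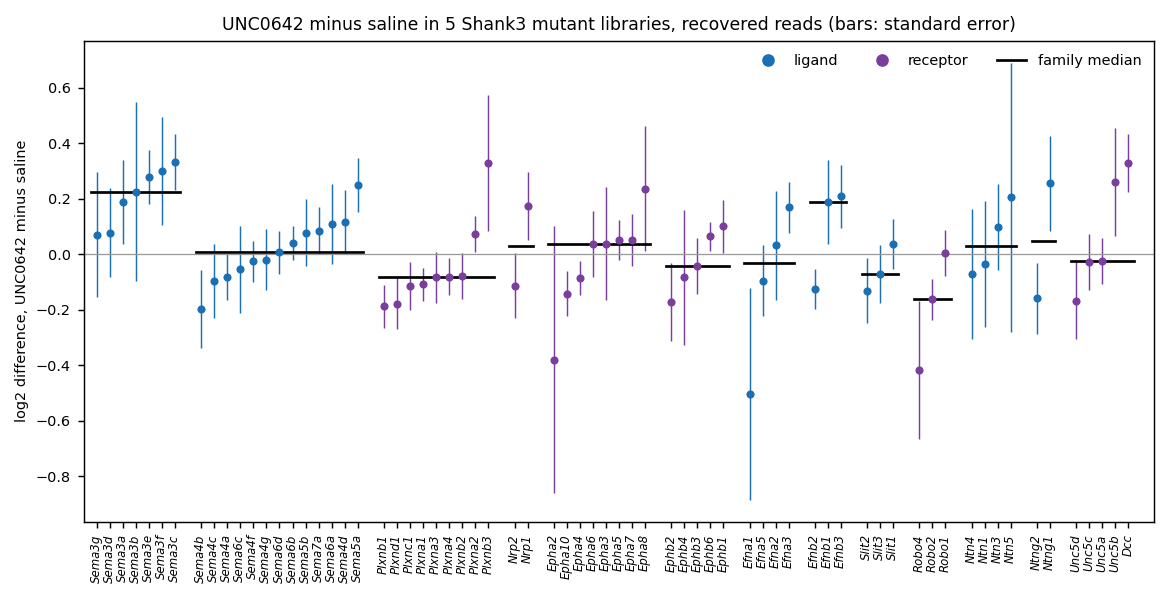
Log2 difference between UNC0642 (2 libraries) and saline (3 libraries) in Shank3 mutants on the same side of the library division, from limma-voom on recovered reads, for each of the 68 members by family, with standard errors as bars and the family median as a black line. All 7 class 3 semaphorins lie above 0 (median 0.23), 7 of 9 plexins lie below it (median -0.08), and no member was called.

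Which distances from wild type remained after treatment was read from UNC0642-treated mutants. This comparison shares its libraries with the others, so its values are given for themselves. Plxnd1 was again first, with a deposited difference of -0.37 (SE 0.10, limma adjusted p = 0.58) and one of -0.42 in recovered reads (SE 0.10, limma-voom adjusted p = 0.12). All 3 UNC0642 libraries lay below all 3 of wild type on both scales. With the division as a term the difference was -0.44 (SE 0.14, limma-voom adjusted p = 0.84).

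Sema3f differed from wild type by 0.47 (SE 0.15), Epha8 by 0.57 (SE 0.20), Sema3b by 0.52 (SE 0.22), Efnb2 by 0.20 (SE 0.08) and Robo4 by -0.41 (SE 0.18), each at a limma adjusted p of 0.58. Sema3b, a secreted semaphorin at the low end of the family, had 1.19, 1.81 and 1.800 in the wild-type libraries, 1.77, 2.05 and 2.47 in the saline mutants and 2.21, 2.64 and 3.07 under UNC0642 recovered CPM, all UNC0642 libraries above wild type. Robo4 had 6.34, 5.65 and 7.52 in wild type, 5.21, 6.94 and 5.202 in saline mutants and 5.23, 4.27 and 4.799 under UNC0642 in deposited values, with every UNC0642 library below wild type. In recovered reads Robo4 had 5.77, 5.11 and 6.89 in the wild-type libraries, 5.297, 7.13 and 5.29 in the saline mutants and 5.32, 3.81 and 4.31 under UNC0642, and the groups overlapped. Endothelial and mural markers had a median of -0.17 in the same deposited comparison, with 11 of 17 negative and sums of 381 to 464 in wild type, 364 to 430 in saline mutants and 353 to 390 under UNC0642. Their part in Robo4 and Plxnd1 was not tested.

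Over all members limma on deposited values called 0 of 68 (0.0% of all genes), with 9 members at an unadjusted p under 0.05 against 8.57% of all genes. Limma-voom on recovered reads called 0 members and 0.0762% of all genes, with 13 members at an unadjusted p under 0.05 against 19.2%. With the division as a term 0 members and 0.0346% of all genes were called, with 4 members against 4.69% at an unadjusted p under 0.05. Without UNC0642 replicate 3, limma-voom on the recovered reads called 11 members (16.2%, against 20.5% of all genes). The groups did not overlap for 10 members in deposited values (11.7% of all genes) and 12 in recovered reads (17.4%). Both sets held Sema3b, Sema3f, Epha3, Epha8, Efnb2 and Ntng1 on the higher side and Plxnd1, Slit3 and Ntn4 on the lower.

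Plexins were all negative in this comparison too, at a median of -0.13 in deposited values and -0.15 in recovered reads, and with the division as a term 5 of 9 were (median -0.03). Of Dcc and the Unc5 receptors 4 of 5 were negative in deposited values (median -0.18) and 5 of 5 with the division as a term (median -0.17). Of the B ephrins, Efnb2 and Efnb3 were positive under each of these. Efnb3, the ephrin of midline and forebrain axons, had 68.3, 75.1 and 89.3 in the wild-type libraries, 73.7, 103 and 80.9 in the saline mutants and 91.98, 105 and 87.7 under UNC0642 recovered CPM, with overlapping groups, and differed by 0.28 (SE 0.12, limma adjusted p = 0.58) in deposited values.

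The rest of the pathway was read from 27 measured co-receptors and ligands outside the 13 families and 63 intracellular effectors. On deposited values limma called 0 of either list in each comparison. In recovered reads of saline mutant against wild type, 3 of the 27 were called higher and 3 lower, and 5 of the 63 effectors higher and 10 lower, with 12.4% of all genes called. Effectors had a median of -0.13 there and of -0.02 with the division as a term. Sos1, an exchange factor of Ras downstream of Robo, differed by -0.55 (SE 0.12, limma-voom adjusted p = 0.02) and Rasa1, a Ras GTPase-activating protein downstream of Eph receptors, by -0.44 (SE 0.10, adjusted p = 0.02). With the division as a term 0 genes of either list were called, Sos1 and Rasa1 included.

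Against wild type, treated mutants had 15 of 63 effectors positive in deposited values (median -0.08), led by Trim9, a ubiquitin ligase of the netrin response, at -0.26 (SE 0.08), and Dpysl5, a collapsin response mediator, at 0.32 (SE 0.10), both at a limma adjusted p of 0.58. Robo3, a Robo family receptor that the rule for members leaves out, was the 1 gene of both lists called between treated mutant and wild type in recovered reads. It had 24.8, 28.9 and 33.03 in the wild-type libraries, 10.4, 11.5 and 15.9 in the saline mutants and 13.01, 16.04 and 8.56 under UNC0642, with every mutant library below every wild-type library. The log2 difference was -1.24 (SE 0.20, limma-voom adjusted p = 0.041), and -1.75 (SE 0.27, adjusted p = 0.04) with the division as a term. In saline mutants against wild type it was -1.21 (SE 0.20, limma-voom adjusted p = 0.013), and -1.98 (SE 0.33, adjusted p = 0.18) with the division as a term.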

How the data were processed

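The deposited values are a signal per gene and library, named CPM by the authors. The submitters' processing notes name cutadapt, TopHat2, HTSeq and mm9; no source used here gives versions, normalization or strand setting. No value is 0, and an adjustment equalizes mean log2 values of 2 library sets. Removing it with a prior of 3 reads gave whole reads within 0.02 for 100% of values. The main test was limma 3.58.1 in R 4.3.3 (intensity trend, group only, 9 libraries) on log2(value + 0.5), which understates changes of low genes, with Benjamini-Hochberg adjustment over 14444 genes. Limma-voom used recovered reads with TMM factors, with and without the library division. Both fits were tested on simulated reads that carried neither the adjustment nor the library division, so their behaviour under these was not tested. Alternatives were pseudocounts of 0.1 and 1, only the 14425 genes reaching 1 in 3 libraries, median-of-ratios factors, 2 groups, a replicate block, no trend, an adjusted p under 0.1 and leaving out each library. Members and lists were chosen with earlier results of these data known. Named members are the 6 of smallest p per comparison, the 2 highest per family and the lowest; others, such as those called in recovered reads, were chosen after their values were seen. Lengths and overlaps came from GENCODE M21, on another build than mm9, so no gene coordinates are given. Plots and summaries used Python 3.11.15 with pandas 2.3.3 and matplotlib 3.10.9.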

Additional observations from a re-analysis of the deposited data

How the results depend on the processing

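In deposited values the count of members called was 0 in all 3 comparisons under every pseudocount, the filter, the fit on 2 groups, the looser threshold, the fit without a trend and each library left out. With the replicate number as a block it was also 0 in each comparison. Same-numbered libraries deviated together at r of -0.19 to 0.31 in deposited values, so the numbers were not taken as pairs. In saline mutant against wild type, limma-voom on recovered reads called 7 members in place of 0, with TMM and with median-of-ratios factors; the adjustment limits the deposited differences by construction. Leaving out 1 library moved that count to between 0 and 14 (0.0969% to 25.1% of all genes), and that of treated mutant against wild type to between 0 and 11 (0.00692% to 20.5%). Of the differences of named members under all alternatives, 324 kept their direction and side of the threshold and 6 passed it in recovered reads. Levels per kilobase from the exon union in place of the longest coding transcript moved by more than the spread between libraries for 15 of 27 named members. These alternatives in length and the libraries left out of the recovered reads were chosen after seeing the data. With 3 libraries per group, and for Epha2, Ntn5 and Sema3b few reads, precision is low.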
